A study of Homo sapiens with 6 samples.

Results

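Transcripts of Eph receptors and of ephrins, their ligands, were compared between PC3 cells carrying short hairpin RNA (shRNA) against VprBP and PC3 cells carrying control shRNA. The members were taken by symbol from a list of 10 genes, EPHA1, EPHA2, EPHA4, EPHB2, EPHB3, EPHB4, EFNA1, EFNA4, EFNB1 and EFNB2. Of these, 9 were found among the 12227 genes of the deposited table, and EPHA4 was not analysed here. From a list of 12 other genes of the family, 4 were found as well: EPHB6, EFNA3, EFNA5 and EFNB3. They are described beside the members, so that 13 genes of the family are covered.

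PC3 is an established human prostate cancer cell line, which was grown in DMEM with fetal bovine serum. VprBP is the product of DCAF1. It recruits substrates to a cullin ubiquitin ligase, and a kinase activity towards histones has been attributed to it. There were 3 libraries from cells with VprBP shRNA, called VprBP knockdown here, and 3 from cells with control shRNA, whose genotype is given as WT. Samples of a group carry numbers from sh1 to sh3, which could mean hairpins, cultures or repeat libraries, as the labels leave this unsaid, so the p-values reflect the spread among these samples alone, and that spread may be technical.

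Eph receptors are receptor tyrosine kinases that bind ephrins on the surface of a neighbouring cell. EphA receptors mainly bind ephrin-A proteins, which are held in the membrane by a lipid anchor, and EphB receptors mainly bind ephrin-B proteins, which span the membrane. Binding signals into both cells, forward through the receptor and in reverse through the ephrin, and acts on actin, adhesion and repulsion at cell contacts. In epithelial cancers, prostate cancer included, EPHA2 is known for high levels and for signalling without a bound ligand.

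Members of this family differed in opposite directions. EPHA1, EPHA2 and EFNB1 were clearly lower in VprBP knockdown cells than in control cells, EPHB2 was higher, and EPHB4 was slightly lower. The 250 bases before the RefSeq start of the EPHA1, EPHA2, EFNB1 and EPHB2 genes are shown because these 4 members differed most and the sequences let their start regions be compared. All are on GRCh38.p14, the assembly of the RefSeq table, and run 5′ to 3′ in the direction of transcription. Capitals mark the GC box GGGCGG, to which SP1 family factors bind and which appears as its complement when it lies on the other strand, and TGGGAA, the core of sites for the Notch effector RBPJ, both searched on both strands.
EPHA1, minus strand, chr7:143408857-143409106:
EPHA1: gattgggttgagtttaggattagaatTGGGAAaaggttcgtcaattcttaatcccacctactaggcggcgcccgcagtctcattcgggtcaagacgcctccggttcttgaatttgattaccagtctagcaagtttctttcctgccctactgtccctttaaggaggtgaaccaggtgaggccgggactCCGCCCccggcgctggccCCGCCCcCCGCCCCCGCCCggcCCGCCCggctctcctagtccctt
EPHA2, minus strand, chr1:16156070-16156319:
EPHA2: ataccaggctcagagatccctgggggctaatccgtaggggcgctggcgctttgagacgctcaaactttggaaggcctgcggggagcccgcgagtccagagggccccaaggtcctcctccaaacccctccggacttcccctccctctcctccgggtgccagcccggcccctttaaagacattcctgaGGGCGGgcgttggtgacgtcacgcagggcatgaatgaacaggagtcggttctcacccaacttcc
EFNB1, plus strand, chrX:68828771-68829020:
EFNB1: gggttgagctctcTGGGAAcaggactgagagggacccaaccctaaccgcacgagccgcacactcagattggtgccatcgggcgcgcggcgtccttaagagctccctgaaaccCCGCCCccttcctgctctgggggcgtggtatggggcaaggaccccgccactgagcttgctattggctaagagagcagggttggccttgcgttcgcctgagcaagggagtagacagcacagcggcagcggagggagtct
EPHB2, plus strand, chr1:22710589-22710838:
EPHB2: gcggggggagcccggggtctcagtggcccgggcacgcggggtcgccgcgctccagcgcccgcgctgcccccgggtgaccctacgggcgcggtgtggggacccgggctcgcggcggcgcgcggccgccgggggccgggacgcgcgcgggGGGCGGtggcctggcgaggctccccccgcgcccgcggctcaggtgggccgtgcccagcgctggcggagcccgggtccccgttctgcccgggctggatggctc

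The EPHA1 window held 5 GC boxes, which began between 63 and 23 bases before the start, some of them joined end to end. The EPHA2, EFNB1 and EPHB2 windows held 1 each, 64, 138 and 102 bases before the start. GC content was 59.2% for EPHA1, 63.2% for EPHA2 and 63.6% for EFNB1, which were close to each other, and 84.8% for EPHB2. EPHB2 also had 41 CpG dinucleotides, against 17, 15 and 15 in the EPHA1, EPHA2 and EFNB1 windows. The medians over start regions of listed genes were 65.2% GC and 21 CpG. Other family windows did not keep to this contrast. EFNA5, called lower, had 79.6% GC and 41 CpG, and EPHB4, also lower, had 72.8% and 29. EFNB2, not called, had 78.4% and 40, and EPHB3, called higher, had 70% and 21. TGGGAA was found once in EPHA1, 224 bases before the start, and once in EFNB1, 237 bases before it. A GC box was present in 69.1% of 9422 start regions of listed genes and TGGGAA in 19.3%, so a match is a description of the sequence and not evidence of a bound site. EPHB2 has a second RefSeq entry shifted by 1 base. The AP-1 motif TGANTCA, the E-box CACGTG, the TCF motif ATCAAAG and the interferon-stimulated response element were searched in the same way in all family windows of this table, and these letters were not in them. RefSeq windows were matched for every listed family gene except EFNB3.

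The deposited values are a scaled signal in which 1 read is worth 0.0254 to 0.0439, and they are called levels here. Estimated depth was 23029435 to 39633856 reads in VprBP knockdown libraries and 22981906 to 32293070 reads in control libraries. The table holds no gene with fewer than 150 estimated reads in all libraries. DCAF1, the gene targeted by the shRNA, had levels of 38.5, 41.1 and 40.2 in VprBP knockdown libraries and 79.4, 78.5 and 78.7 in control libraries. The groups did not overlap, and 50.6% of the control level remained (log2 fold change -0.97, SE 0.05, limma adjusted p = 3.56e-11). By exact permutation p was 0.1, which is as small as 3 libraries against 3 allow. VprBP knockdown replicate 3 stood apart from its group: its chi-square over degrees of freedom was 6.26 and 6.69 against the other knockdown libraries, while the other pairs within groups gave 3.39 to 3.85. The 6 epithelial markers fixed for the check were all listed and summed to 3076 to 3145 in VprBP knockdown libraries and 2704 to 2765 in control libraries, but single markers differed in direction, with 3 higher, 2 lower and 1 not called and log2 fold changes of -0.43 to 0.71. Of the leukocyte, endothelial, fibroblast and neural lists, 1 marker of 6 was listed in each. PECAM1, the listed endothelial marker, was 22.6 to 24.0 in VprBP knockdown libraries and 53.0 to 55.2 in control libraries, and MBP, the neural one, was 106 to 111 in VprBP knockdown libraries and 142 to 144 in control libraries. CD68 and COL1A1 overlapped between groups, and the part of other cell types in the results was not tested.

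Of the 9 listed members, 2 were higher in VprBP knockdown cells, 4 were lower and 3 were not called at an adjusted p under 0.05 (limma over all listed genes). Among all listed genes 60.9% were called, 33.0% as higher and 27.8% as lower, so the number of members called is close to the background and says nothing particular about the family. The split of all genes by direction depends on the scaling, with 3723 higher and 3717 lower under median-ratio scaling. The same 6 members had groups that did not overlap, as did 64.8% of all genes, 35.1% with VprBP knockdown above and 29.6% with it below. Exact permutation gave p = 0.1 for each of these 6 members. This is the smallest value it can give with these libraries, so it could not call any of them at 0.05. When the test was made against a fold of 1.5 (treat in limma), EPHA1 and EFNB1 were called, 2 of the 9, as were 5.32% of all genes. The median log2 fold change was -0.06 over the listed members and 0.02 over all genes. With the 4 other family genes, 2 of 13 were higher, 7 were lower and 4 were not called, with a median of -0.18. No family gene reached a 2-fold difference, as 454 genes of the table did. In these bulk samples, fewer cells that express a gene and less RNA per cell cannot be told apart.

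**Figure D1:**
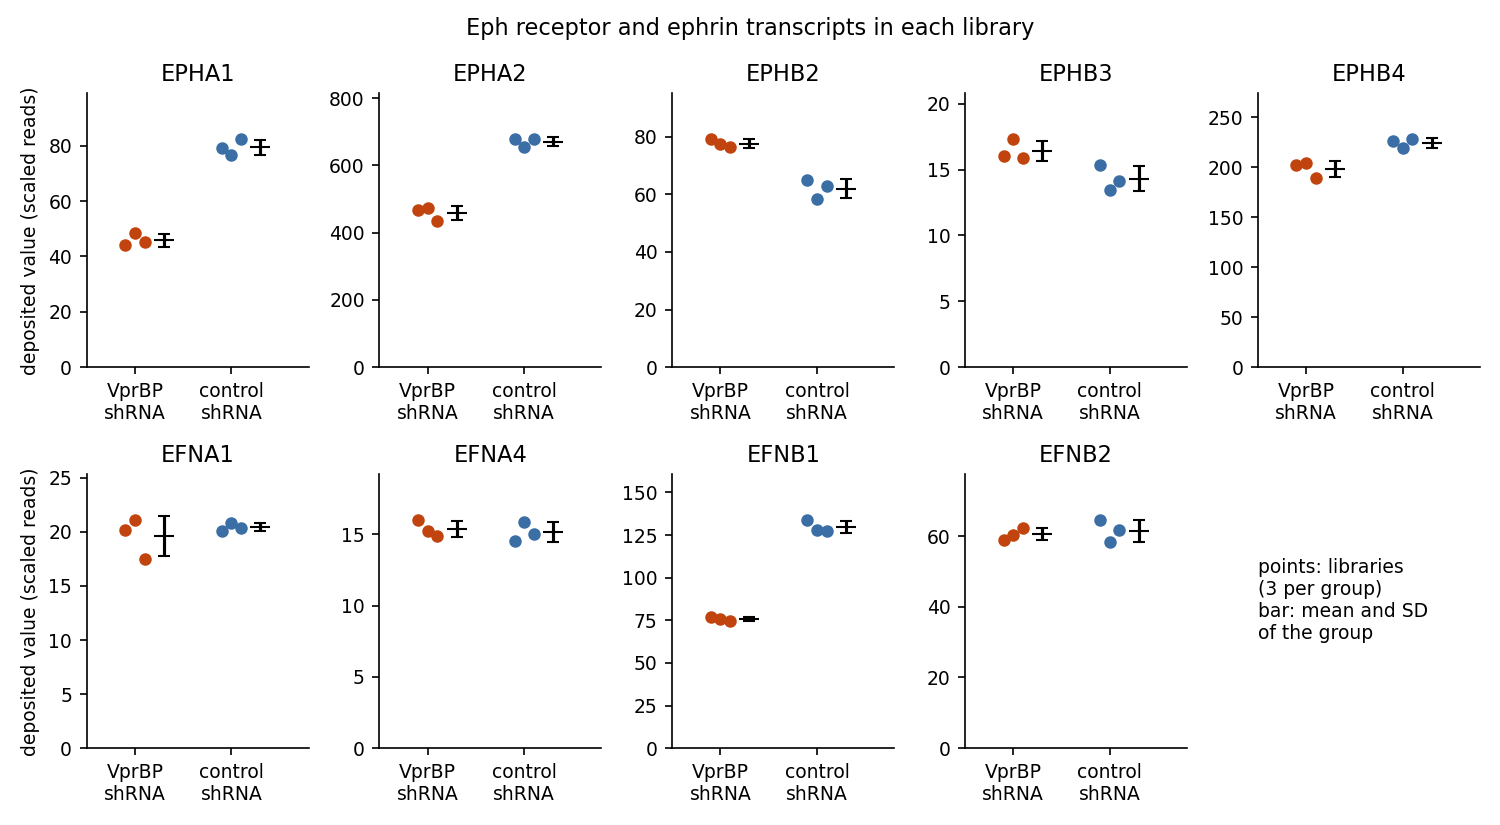
Deposited level (scaled reads, vertical axes from 0, a scale for each gene) of the 9 listed members in the 3 VprBP shRNA libraries and the 3 control shRNA libraries, with each library as a point and the mean and SD of each group as a bar beside it. EPHA1, EPHA2 and EFNB1 show the widest gaps, with VprBP shRNA libraries below control libraries, and EFNA1, EFNA4 and EFNB2 overlap between the groups.

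Among the receptors, both listed EphA genes fell in VprBP knockdown cells, where 27.8% of all listed genes were lower. EPHA1 (ENSG00000146904.9; chromosome 7, 143390289 to 143408856, minus strand, hg38), a receptor of epithelia, had levels of 44.0, 48.3 and 45.2 in VprBP knockdown libraries and 79.0, 76.7 and 82.4 in control libraries. Every VprBP knockdown library was far below every control library. The means were 45.8 ± 2.25 in VprBP knockdown cells and 79.4 ± 2.87 in control cells (SD, n = 3 each), which leaves 57.7% of the control level (log2 fold change -0.79, SE 0.05, limma adjusted p = 1.31e-09). An absolute log2 fold change of this size or more was found for 6.35% of all listed genes.

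EPHA2 (ENSG00000142627.13; chromosome 1, 16124337 to 16156069, minus strand) is the receptor of the family most often studied in carcinomas. Its levels were 466, 474 and 433 in VprBP knockdown libraries and 678, 656 and 677 in control libraries. The groups were well apart, and VprBP knockdown replicate 3 was the lowest library. The means were 458 ± 21.4 in VprBP knockdown cells and 670.3 ± 12.8 in control cells (SD, n = 3 each), so that 68.3% of the control level remained (log2 fold change -0.55, SE 0.04, limma adjusted p = 1.44e-09). EPHA2 rested on 9869 to 22058 estimated reads per library, the most of any member.

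The EphB receptors split by direction, with 2 higher and 2 lower among 4 listed. Of all listed genes, 33.0% were higher and 27.8% were lower. EPHB2 (ENSG00000133216.17; chromosome 1, 22710839 to 22921500, plus strand), known for boundary formation in the intestinal crypt, had levels of 79.1, 77.3 and 76.3 in VprBP knockdown libraries and 64.8, 58.3 and 62.8 in control libraries. All 3 VprBP knockdown libraries were above all 3 control libraries. EPHB2 rose 1.25-fold, with means of 77.6 ± 1.42 in VprBP knockdown cells and 62.0 ± 3.32 in control cells (SD, n = 3 each; log2 fold change 0.32, SE 0.05, limma adjusted p = 2.41e-05).

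EPHB3 (ENSG00000182580.3; chromosome 3, 184561785 to 184582408, plus strand), which acts with EPHB2 in the crypt, was among the scarce members, with 312 to 631 estimated reads per library. It had levels of 16.0, 17.3 and 15.9 in VprBP knockdown libraries and 15.3, 13.5 and 14.1 in control libraries. The groups did not overlap, but the gap was narrow. The means were 16.4 ± 0.775 in VprBP knockdown cells and 14.3 ± 0.948 in control cells (SD, n = 3 each), a 1.15-fold difference at the edge of the threshold (log2 fold change 0.19, SE 0.08, limma adjusted p = 0.0499). The call was lost under other scalings, under voom and when any of 4 single libraries was left out (VprBP knockdown replicate 1 or 2, or control replicate 2 or 3), with limma adjusted p between 0.0335 and 0.167 over the 6 omissions.

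EPHB4 (ENSG00000196411.10; chromosome 7, 100802565 to 100827523, minus strand), the receptor of ephrin-B2 in vessels, had levels of 202, 204 and 189 in VprBP knockdown libraries and 226, 219 and 228 in control libraries. The groups did not overlap, and the difference was small. The means were 198 ± 8.30 in VprBP knockdown cells and 224 ± 4.78 in control cells (SD, n = 3 each), and EPHB4 fell to 88.4% of the control level (log2 fold change -0.18, SE 0.04, limma adjusted p = 0.000719). EPHB6 (chromosome 7, 142855061 to 142871094, plus strand), a receptor without kinase activity, had levels of 16.8, 18.8 and 13.9 in VprBP knockdown libraries and 27.9, 32.2 and 28.4 in control libraries. It fell to 55.9% of the control level (log2 fold change -0.83, SE 0.09, limma adjusted p = 1.28e-06). Without VprBP knockdown replicate 3 the log2 fold change of EPHB6 was -0.71, so its place beside EPHA1 and EFNB1 in size is not settled.

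Among the ephrins, 3 of 7 listed genes fell in VprBP knockdown cells and 4 were not called. Over all listed genes 60.9% were called, 27.8% as lower. EFNB1 (ENSG00000090776.6; X chromosome, 68829021 to 68842160, plus strand), a transmembrane ligand that binds EphB receptors, had levels of 77.1, 76.0 and 74.7 in VprBP knockdown libraries and 134, 128 and 128 in control libraries. The libraries of each group lay close together and the groups were far apart. The means were 75.9 ± 1.22 in VprBP knockdown cells and 129.8 ± 3.44 in control cells (SD, n = 3 each), so that 58.5% of the control level remained (log2 fold change -0.77, SE 0.04, limma adjusted p = 9.57e-11, the lowest among the members). This is a difference close in size to that of EPHA1, although no test compared them.

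EFNB2 (ENSG00000125266.8; chromosome 13, 106489745 to 106535662, minus strand), the ligand of EPHB4, had levels of 58.9, 60.3 and 62.3 in VprBP knockdown libraries and 64.5, 58.4 and 61.7 in control libraries. The groups overlapped fully. The log2 fold change was -0.02 (95% interval -0.13 to 0.08, limma adjusted p = 0.702), so that the ratio to control lay between 0.915 and 1.06 by that interval, and exact permutation gave p = 0.7. The remaining ephrin-B gene, EFNB3, had means of 8.11 ± 0.340 in VprBP knockdown cells and 8.78 ± 0.392 in control cells (SD, n = 3 each) and was not called (log2 fold change -0.11, 95% interval -0.32 to 0.10, limma adjusted p = 0.363).

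The members with lipid-anchored products, EFNA1 and EFNA4, were not called. EFNA1 (ENSG00000169242.12; chromosome 1, 155127876 to 155134899, plus strand), a ligand of EPHA2, had levels of 20.2, 21.1 and 17.5 in VprBP knockdown libraries and 20.1, 20.8 and 20.4 in control libraries. VprBP knockdown replicates 1 and 2 lay among or just above the control libraries and replicate 3 lay below them. The log2 fold change was -0.06 (95% interval -0.23 to 0.10, limma adjusted p = 0.497; exact permutation p = 0.8). Without VprBP knockdown replicate 3 its sign turned, at 0.01.

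EFNA4 (ENSG00000243364.8; chromosome 1, 155063737 to 155069553, plus strand) had levels of 16.0, 15.2 and 14.9 in VprBP knockdown libraries and 14.5, 15.9 and 15.0 in control libraries. The groups overlapped, with a log2 fold change of 0.02 (95% interval -0.14 to 0.19, limma adjusted p = 0.824; exact permutation p = 0.7). The other listed ephrin-A genes were called lower, although no test compared them with EFNA1 and EFNA4. EFNA3, which lies between EFNA4 and EFNA1 on chromosome 1, had levels of 18.1, 19.5 and 16.6 in VprBP knockdown libraries and 23.3, 24.0 and 25.6 in control libraries, and fell to 74.3% of the control level (log2 fold change -0.42, SE 0.07, limma adjusted p = 0.000144). EFNA5, studied for axon guidance, had levels of 19.6, 19.5 and 19.7 in VprBP knockdown libraries and 24.7, 23.5 and 24.2 in control libraries. It fell to 81.1% of the control level (log2 fold change -0.29, SE 0.07, limma adjusted p = 0.00094).

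VprBP knockdown replicate 3 was the lowest knockdown library for 9 of the 13 family genes. The share of all listed genes with this order was not counted, so the number says nothing particular about the family. Leaving VprBP knockdown replicate 3 out kept the sign and the call of each of the 6 called members. The range of log2 fold change over single omissions was -0.82 to -0.76 for EPHA1, -0.58 to -0.51 for EPHA2, -0.78 to -0.75 for EFNB1, 0.28 to 0.36 for EPHB2 and -0.20 to -0.14 for EPHB4. The paralogues of the family share kinase sequence, and the authors' handling of reads that match more than 1 gene was not given in the sources used here.

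**Figure D2:**
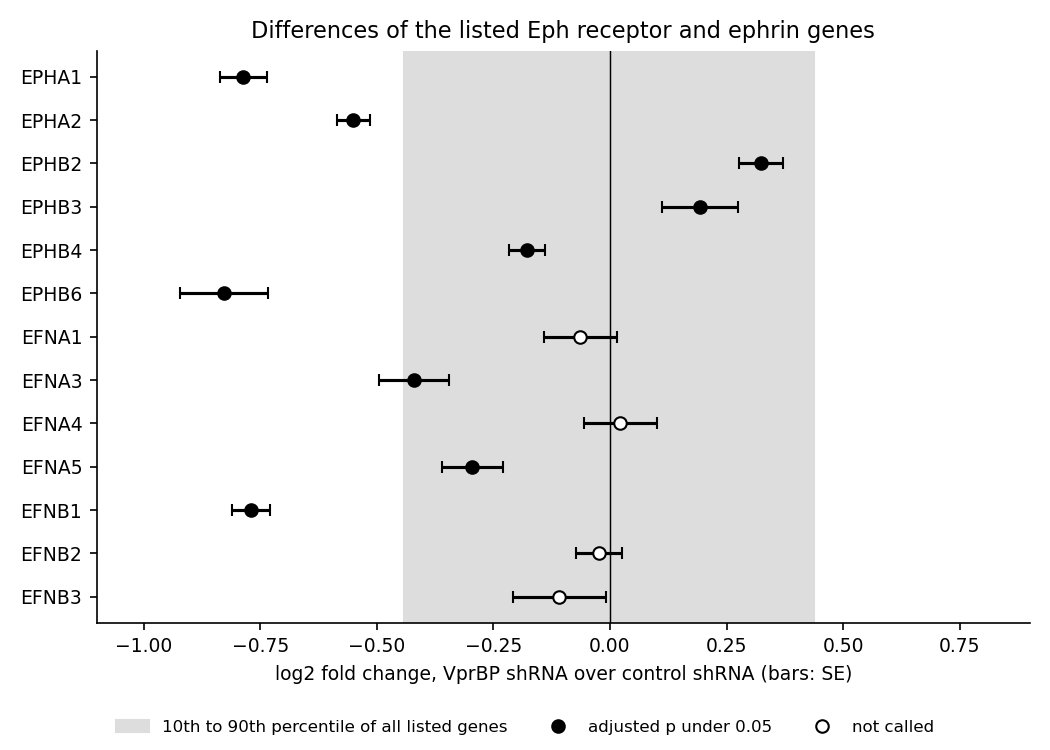
Log2 fold change of VprBP shRNA over control shRNA (horizontal axis, on the log2(level + 0.5) scale) for the 13 listed family genes, with SE bars, filled points for genes called at an adjusted p under 0.05 and a grey band from the 10th to the 90th percentile of all listed genes (-0.44 to 0.44). EPHA1, EPHA2, EPHB6 and EFNB1 lie below the band, and every point above 0 lies inside it.

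The size of these differences was next set against the abundance of each gene. Levels were divided by the length of the main transcript in GENCODE 29, given as the level per kilobase (kb), so that genes can be compared. EPHA2 was the most abundant gene of the family in both groups, with 115.5 ± 5.40 per kb in VprBP knockdown cells and 169 ± 3.22 per kb in control cells (SD, n = 3 each). It lay above 94.8% of 11183 genes with a length in VprBP knockdown cells and above 97.0% in control cells. EPHB4 came next, at 45.8 ± 1.92 per kb in VprBP knockdown cells and 51.8 ± 1.10 per kb in control cells. With the union of all annotated exons as the length, EPHB4 was at 30.8 ± 1.29 per kb in VprBP knockdown cells and 34.8 ± 0.742 per kb in control cells, below EFNB1 in control cells.

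EFNB1 was the most abundant ephrin in both groups, with a level of 22.9 ± 0.369 per kb in VprBP knockdown cells and 39.2 ± 1.04 per kb in control cells. EPHB2 and EPHA1 changed places. EPHB2 had a level of 21.1 ± 0.387 per kb in VprBP knockdown cells and 16.9 ± 0.903 per kb in control cells, and EPHA1 had 13.6 ± 0.669 per kb in VprBP knockdown cells and 23.6 ± 0.853 per kb in control cells. Their libraries did not overlap within either group. This order rests on the transcript used: with the union of all annotated exons, 12516 bases for EPHB2 against 3677 in its main transcript, EPHB2 ranked 9th in VprBP knockdown cells and 10th in control cells among the 13, below EPHA1 in both.

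EFNA4, EFNB2, EFNA1 and EFNA3 were of middle abundance. In VprBP knockdown cells they had levels of 12.2 ± 0.449, 12.1 ± 0.345, 10.2 ± 0.963 and 10.1 ± 0.789 per kb, where neither EFNA4 and EFNB2 nor EFNA1 and EFNA3 differed beyond their spread. In control cells EFNA3, at 13.6 ± 0.642 per kb, lay above the other 3 in every library, while EFNB2 (12.3 ± 0.614 per kb) and EFNA4 (12.0 ± 0.550 per kb) overlapped. EPHB6, EPHB3, EFNA5 and EFNB3 were the scarcest. EPHB6 had a level of 4.11 ± 0.612 per kb in VprBP knockdown cells, where it overlapped EPHB3 (3.88 ± 0.183 per kb) and EFNA5 (3.67 ± 0.0250 per kb), and 7.36 ± 0.593 per kb in control cells, where it lay above both.

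Summed over the 6 listed receptors, the level per kb was 204 ± 8.59 in VprBP knockdown cells and 272 ± 5.44 in control cells (SD, n = 3 each). EPHA2 made up 56.6 ± 0.303% of that sum in VprBP knockdown cells and 62.2 ± 0.120% in control cells. The share of EPHB4 was 22.4 ± 0.106% in VprBP knockdown cells and 19.0 ± 0.0762% in control cells, although its level fell, and that of EPHB2 was 10.4 ± 0.354% in VprBP knockdown cells and 6.19 ± 0.223% in control cells. Over the 7 listed ephrins the summed level per kb was 73.7 ± 1.90 in VprBP knockdown cells and 95.0 ± 0.760 in control cells. EFNB1 accounted for 31.1 ± 0.512% of it in VprBP knockdown cells and 41.2 ± 0.839% in control cells. EFNA4 and EFNB2, whose levels were not called, each had a larger share in every VprBP knockdown library than in any control library. These are shares of the genes listed here, and EPHA4 is not among them. They depend on the length used: with the exon union, EPHB2 made up 3.80% of the receptor sum in VprBP knockdown cells and 2.19% in control cells, and EPHA2 67.3% in VprBP knockdown cells and 71.2% in control cells.

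**Figure D3:**
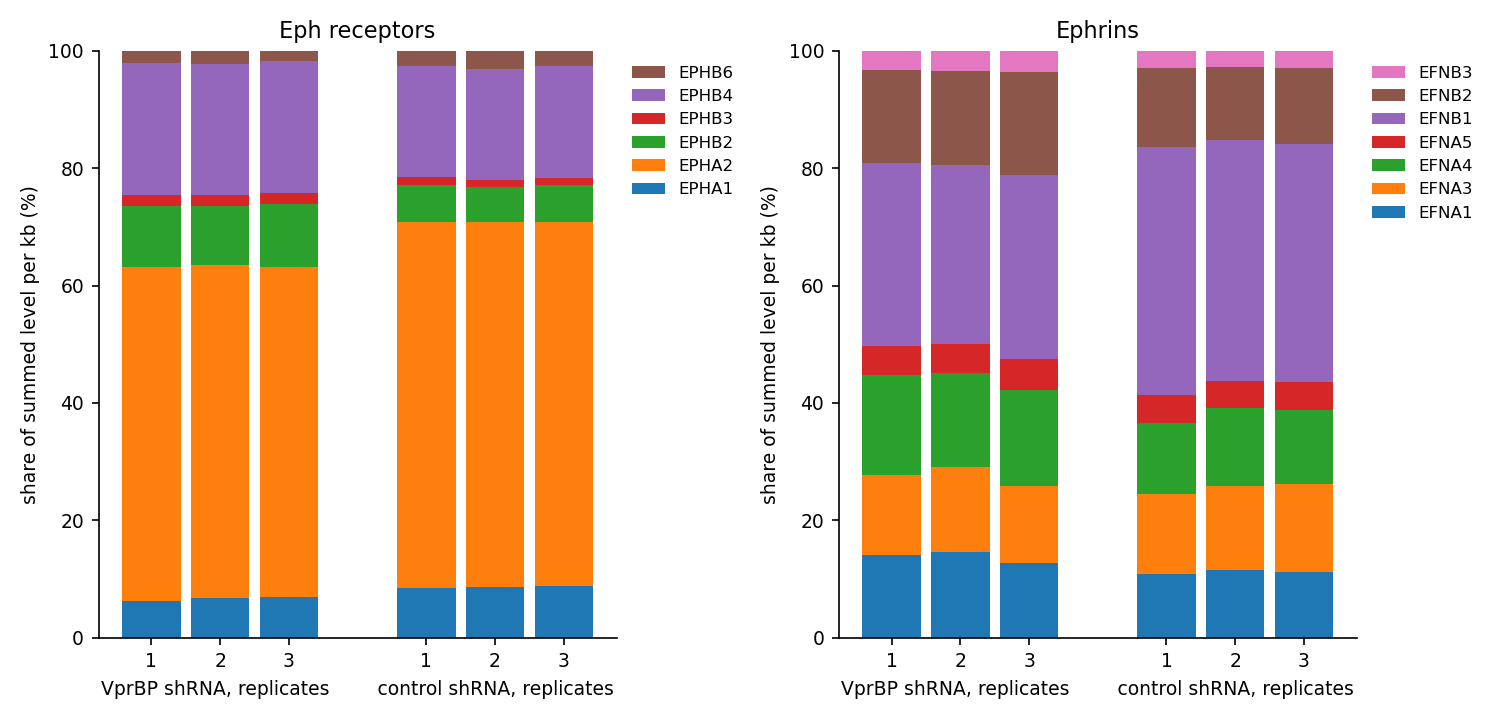
Share of each gene (%, vertical axis from 0 to 100) in the summed level per kb of main transcript of the 6 listed Eph receptors (left) and the 7 listed ephrins (right), as stacked bars for VprBP shRNA replicates 1 to 3 and control shRNA replicates 1 to 3. EPHA2 fills 56.6% of the receptor bars on average in VprBP shRNA libraries and 62.2% in control libraries, and EFNB1 fills 31.1% of the ephrin bars in VprBP shRNA libraries and 41.2% in control libraries.

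Ligand and receptor levels were also compared within each library, where the scaling of libraries cancels. These ratios combine levels already given, which were not divided by transcript length here, and are descriptions without a test. Transcript length thus affects the size of each ratio, and only the difference between the groups is free of it. The log2 ratio of EFNB1 to EPHB2 was -0.03 ± 0.006 in VprBP knockdown cells and 1.07 ± 0.06 in control cells (SD, n = 3 each), a ratio 2.14-fold lower in VprBP knockdown cells. That of EFNB1 to EPHB3 was 2.21 ± 0.07 in VprBP knockdown cells and 3.18 ± 0.06 in control cells, 1.96-fold lower. For EFNA1 and EFNA4, with EPHA2 lower and these ligands not called, the ratio to EPHA2 was higher in VprBP knockdown cells. The other listed ephrin-A genes, EFNA3 and EFNA5, fell to 74.3% and 81.1% of the control level and were not set against EPHA2. The log2 ratio of EFNA1 to EPHA2 was -4.55 ± 0.07 in VprBP knockdown cells and -5.03 ± 0.05 in control cells, 1.40-fold higher, and that of EFNA4 to EPHA2 was -4.90 ± 0.05 in VprBP knockdown cells and -5.47 ± 0.09 in control cells, 1.49-fold higher. EFNB2 to EPHB4 differed least of the 5 ratios, at -1.71 ± 0.10 in VprBP knockdown cells and -1.87 ± 0.05 in control cells. The groups did not overlap for any of the 5 ratios. Each ratio contains EPHA2, EPHB4 or EFNB1, whose own groups did not overlap, as those of 64.8% of all single genes did not. The lack of overlap in the ratios is therefore no separate result.

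The genes around the members were then examined, since adjacent or overlapping genes can share reads or a region. All 3 listed genes that start within 100 kb of EPHA1 fell in VprBP knockdown cells, each more than EPHA1 itself in log2 fold change. ZYX, which encodes the focal adhesion protein zyxin, had a mean of 178 ± 6.08 in VprBP knockdown cells and 622 ± 23.6 in control cells (SD, n = 3 each), 3.50-fold lower (log2 fold change -1.81, SE 0.04, limma adjusted p = 5.34e-16). FAM131B was 16.5-fold lower, with 3.58 ± 0.682 in VprBP knockdown cells and 59.0 ± 3.55 in control cells (SD, n = 3 each; limma adjusted p = 2.02e-14). The adjacent noncoding gene FAM131B-AS2 was 2.96-fold lower, with means of 9.60 ± 1.13 in VprBP knockdown cells and 28.4 ± 1.70 in control cells. ZYX lies on the opposite strand and overlaps EPHA1 by 823 bases at their ends. In GENCODE 29, 82 bases are exonic in both genes, 1.73% of the 4733 exon bases of EPHA1. The use of strand in counting was not given in the sources used here, so reads in those bases cannot be assigned to either gene, and their part in the EPHA1 difference was not tested.

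In a wider window of 1 Mb, chosen after these values were seen, 16 genes around EPHA1 were listed, of which 3 were higher, 9 were lower and 4 were not called. Their median log2 fold change was -0.30. Over all listed genes 33.0% were higher and 27.8% were lower, and no test set this window against the rest of the genome. In the same window around EPHB2, 4 of 17 listed genes were higher, 10 were lower and 3 were not called, and around EPHA2 7 of 24 were higher, 7 were lower and 10 were not called. In the EPHA1 window, GSTK1, which encodes a glutathione transferase, was 1.54-fold lower, and the caspase gene CASP2 was 1.22-fold lower. EPHB6, described above, starts 553.8 kb from EPHA1. TCAF2, TRBC2 and ARHGEF35, also near EPHA1, were higher.

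**Figure D4:**
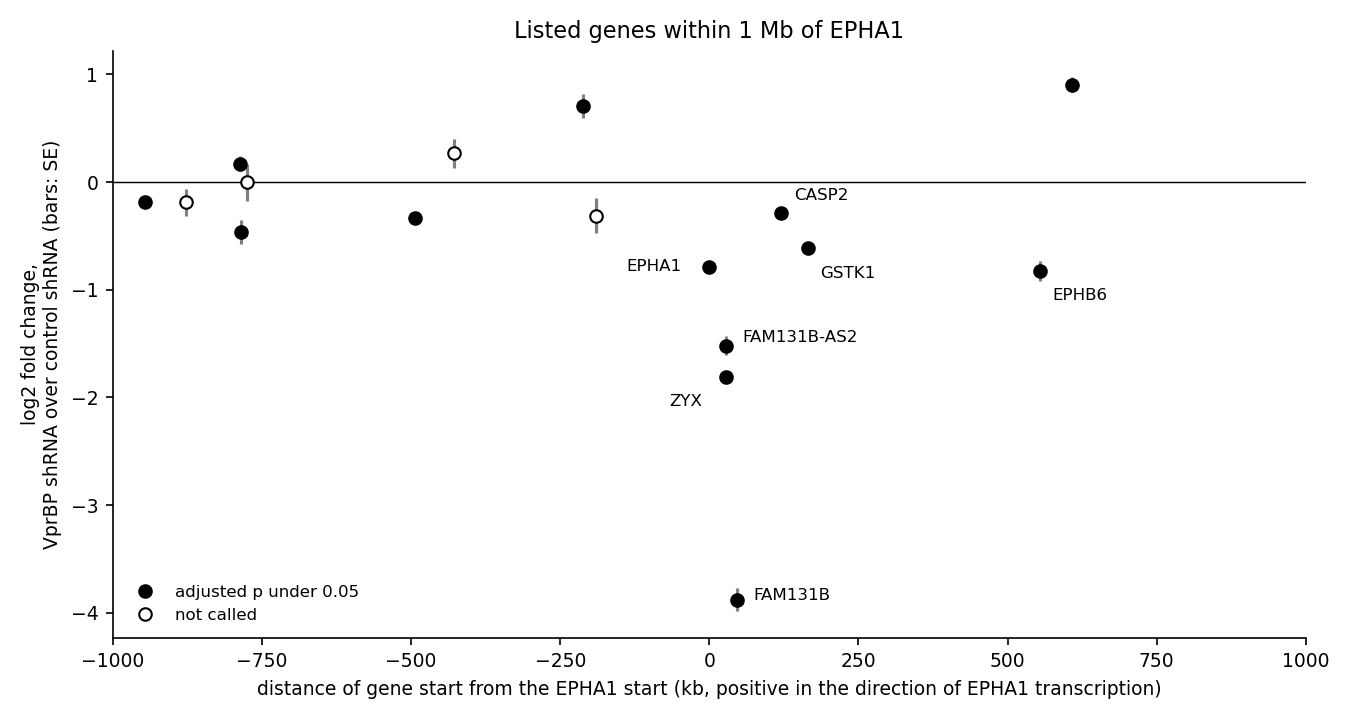
Log2 fold change of VprBP shRNA over control shRNA (vertical axis, SE bars) for EPHA1 and the 16 listed genes that start within 1 Mb of it, by the distance between gene starts (kb, horizontal axis, positive in the direction of EPHA1 transcription). ZYX, FAM131B-AS2 and FAM131B, next to EPHA1, lie far below 0, and 3 of the 16 genes lie above 0 with a call.

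Around the other members the counts were mixed. Of 3 genes listed near EPHA2, FAM131C was lower (log2 fold change -0.73) and the other 2 were not called. Near EPHB2, KDM1A was lower by a small amount (log2 fold change -0.09, limma adjusted p = 0.0401), against the direction of EPHB2. That call held only when VprBP knockdown replicate 3 was the library left out, and the adjusted p reached 0.139 without control replicate 2. EPHB4 has 3 listed neighbours that were higher, POP7, TRIP6 and SRRT (log2 fold changes 0.11, 0.93 and 0.27), while EPHB4 was lower. The POP7 call was likewise lost without any single library other than VprBP knockdown replicate 3, with an adjusted p of up to 0.124 in limma without control replicate 2. SLC12A9, which overlaps EPHB4 on the opposite strand, was not called (limma adjusted p = 0.957), and 69 shared exon bases make up 1.07% of the EPHB4 exons. The single listed neighbours of EFNB1 and EFNB2 were not called, and no gene near EPHB3 was listed. Around EFNA1, 11 genes were listed, with 2 higher, 3 lower and 6 not called. Next to EFNA4 lies ADAM15, a metalloprotease gene with a mean of 458 ± 12.0 in VprBP knockdown cells and 407 ± 10.8 in control cells (SD, n = 3 each), which was higher (log2 fold change 0.17, limma adjusted p = 0.00033).

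Genes that act with Eph receptors and ephrins were then counted in lists, and from each list up to 3 called genes per direction with a mean level of at least 5 are named. Some genes, such as TIAM1 and YES1, stand in more than 1 list, so the counts are not independent. The counts of all lists are to be read against the whole table, in which 60.9% of genes were called, 33.0% as higher and 27.8% as lower, and no list was tested against it. Of 28 listed adaptors and exchange factors that act at Eph receptors, 6 were higher in VprBP knockdown cells, 10 were lower and 12 were not called. Their median log2 fold change was -0.03. CHN1, a Rac inactivator downstream of EphA receptors in neurons, was 3.30-fold higher, with means of 8.57 ± 0.655 in VprBP knockdown cells and 2.60 ± 0.115 in control cells (SD, n = 3 each). The kinase gene MAP4K4 rose 1.25-fold and the adaptor gene BCAR3 rose 1.24-fold. TIAM1, a Rac exchange factor that binds EphA2 and ephrin-B proteins, had levels of 24.8, 24.5 and 25.4 in VprBP knockdown libraries and 47.4, 45.1 and 46.9 in control libraries. It fell to a level that no control library approached (log2 fold change -0.89, SE 0.06, limma adjusted p = 9.27e-10). The adaptor gene GRB7 was 16.8 ± 0.843 in VprBP knockdown cells and 30.1 ± 2.91 in control cells, and VAV3, another exchange factor, was 6.76 ± 0.874 in VprBP knockdown cells and 11.1 ± 1.41 in control cells, and both were called lower.

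The list of ephrin-B reverse signalling had 6 genes higher, 7 lower and 4 not called of 17, with a median of 0.03. L1CAM, an adhesion molecule, rose 1.81-fold, with levels of 45.0, 44.3 and 43.9 in VprBP knockdown libraries and 25.4, 22.3 and 25.9 in control libraries. DNMBP, an exchange factor of Cdc42, rose 1.54-fold, and the polarity gene PARD6A rose by 0.56 in log2 fold change on low levels, and by 0.36 without control replicate 2. PTPN13, the phosphatase that binds the tail of ephrin-B proteins, was 23.5 ± 0.656 in VprBP knockdown cells and 42.0 ± 1.47 in control cells, 1.79-fold lower. YES1, a SRC family kinase gene, was 1.30-fold lower. Of 21 kinases and phosphatases, 6 were higher, 10 were lower and 5 were not called, with a median of -0.09. LIMK2, a kinase acting on cofilin, LYN and ABL1 led the increases with log2 fold changes of 0.42, 0.34 and 0.25, and the receptor phosphatase gene PTPRJ (-0.76) and PTK2B (-0.52), the gene of a relative of focal adhesion kinase, led the decreases.

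Proteases and secretases that cleave Eph receptors or ephrins had 9 genes higher, 2 lower and 4 not called of 15, where 33.0% of all listed genes were higher and 27.8% were lower, with a median of 0.17. MMP14, a membrane metalloprotease known to cleave EphA2, had levels of 361, 367 and 338 in VprBP knockdown libraries and 197, 191 and 182 in control libraries, and rose 1.87-fold (log2 fold change 0.90, SE 0.04, limma adjusted p = 1.09e-11). MMP9, a secreted gelatinase whose mean level lay under 5 and which was named after its values were seen because it stood out in this list, averaged 4.99 in VprBP knockdown cells and 0.157 in control cells (log2 fold change 3.06, which depends on the pseudocount at such low control levels). ADAM12 rose 2.27-fold, and PSENEN, a subunit of gamma-secretase, rose 1.38-fold. ADAM10, the protease known to shed ephrin-A ligands, was lower by a small amount, with means of 96.9 ± 4.60 in VprBP knockdown cells and 109 ± 0.744 in control cells (SD, n = 3 each; log2 fold change -0.16, limma adjusted p = 0.00321), as was ADAM17 (log2 fold change -0.21, limma adjusted p = 0.00172).

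Notch pathway genes were included because ephrin-B2 is a textbook target of Notch in vessels. Of 11 listed, 7 were lower and 4 were not called, a number of calls near the 60.9% over all listed genes, of which 27.8% were lower. Their median log2 fold change was -0.21. NRARP, a Notch target that limits Notch, was 1.97-fold lower, with means of 9.88 ± 1.04 in VprBP knockdown cells and 19.5 ± 1.18 in control cells (SD, n = 3 each). NOTCH3 was 1.62-fold lower, at 128 ± 5.89 in VprBP knockdown cells and 207 ± 11.0 in control cells, and HEY1, a Notch target, was 1.60-fold lower, at 19.4 ± 0.825 in VprBP knockdown cells and 31.1 ± 0.647 in control cells. Other Notch targets of this list were not called: HES1 (log2 fold change 0.04, limma adjusted p = 0.513) and HES4 (-0.11, limma adjusted p = 0.337). JAG1 and MAML1 were not called either. EFNB2 itself was not called, as given above.

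**Figure D5:**
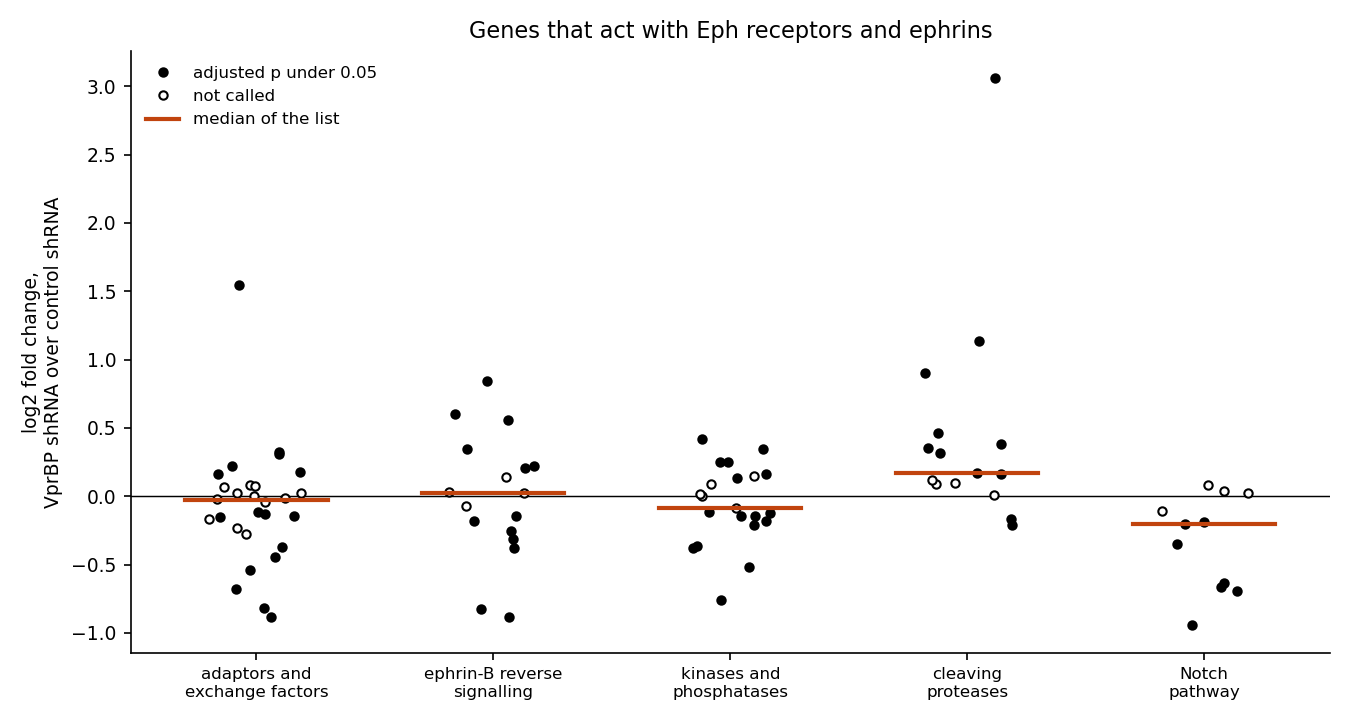
Log2 fold change of VprBP shRNA over control shRNA (vertical axis) for every listed gene of 5 lists of genes that act with Eph receptors and ephrins, with filled points for genes called at an adjusted p under 0.05, open points for the rest and a line at the median of each list. The median is highest for the cleaving proteases (0.17) and lowest for the Notch pathway (-0.21), and the highest point is MMP9 (3.06) among the proteases.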

How the data were processed

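RNA sequencing was analysed in 6 PC3 libraries, 3 with VprBP shRNA and 3 with control shRNA; per the labels' protocols, total RNA went into a SMARTer mRNA-seq kit. The deposited values are a scaled signal, although the authors named them raw counts. In every library their 75th percentile was 78.99 to 79.02, and 55.3% to 64.9% of values were whole multiples of one step, within 0.02 reads. Dividing the summed values of a library by its step gave the estimated depth, for listed genes only. The count model planned for whole counts was therefore not used. Aligner, annotation, scaling and use of strand were not given in the sources used here; Partek and the build hg38 are named, per the submitters' processing notes.

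The main test was limma (version 3.58.1, R 4.3.3) on log2(value + 0.5). It used a trended prior variance and all 6 libraries, with low values left in, and two-sided p-values were adjusted by Benjamini-Hochberg over the 12227 listed genes. Calls were made at an adjusted p under 0.05. Fold changes on the log2(value + 0.5) scale understate the change of low genes; folds without log2 divide one group mean of deposited values by the other. Intervals at 95% come from the same fit. Single members and DCAF1 were also tested by exact permutation over the 20 assignments of the libraries. The procedure was tested on simulated data.

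The members and the gene lists were chosen with earlier results of these data known. Named genes are all members, DCAF1, the other listed family genes, listed genes that overlap a member or start within 100 kb of it (around EFNA1 and EFNA4 given mainly as counts), and up to 3 called genes per direction and list with the largest absolute log2 fold change and a mean of at least 5. MMP9, SEMA3D and the genes named between 100 kb and 1 Mb from EPHA1 fall outside this rule and were chosen after their values were seen. Genes named only as not called fall outside it as well. Coordinates are those of the deposited table with the end reduced by 1; of 12012 genes on the same chromosome in GENCODE 29, 6958 then had an identical end and 6912 an identical start. Main transcripts are the longest with an APPRIS principal tag. Start regions come from RefSeq (GRCh38.p14). Alternatives were other pseudocounts, scalings and filters, voom, no trend, a replicate block, single libraries left out and a fold minimum (treat). The numbers sh1 to sh3 were checked for pairing, described with the alternatives. The result of 1 gene list is not reported here.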

Additional observations from a re-analysis of the deposited data

How the results depend on the processing

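The differences of EPHA1, EPHA2, EFNB1, EPHB2, EPHB4 and DCAF1 kept their direction and their call under pseudocounts of 0.1 and 2, median-ratio and library-sum scaling, a mean of at least 5, voom on estimated reads, no trend and a replicate block, and when each library was left out. Without single libraries, DCAF1 ranged over -0.99 to -0.95 in log2 fold change, the called members over 5 to 6 and the called genes of the table over 6697 to 7405. In the main fit 4037 genes of the table were higher and 3404 were lower. Median-ratio scaling gave 3723 and 3717, library-sum scaling 3751 and 3681, and voom 3790 and 3703. EPHB3 lost its call, with log2 fold changes of 0.17 under median-ratio scaling, 0.17 under library-sum scaling, 0.17 under voom and 0.19 under the replicate block, and ranged over 0.15 to 0.24 without single libraries. Uncalled members changed sign: EFNA4 to -0.00281 under median-ratio and -0.000316 under library-sum scaling, and over -0.00724 to 0.056 without single libraries; EFNA1 ranged over -0.12 to 0.013 and EFNB2 over -0.0604 to 0.011. The cause was not tested.

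Tested against a fold of 1.5 (treat), EPHA1 and EFNB1 stayed called, 2 members in all and 2 family genes, while EPHA2 (-0.55), EPHB2 (0.32), EPHB3 (0.19) and EPHB4 (-0.18) were not. That test called 651 genes of the table, 5.32%. It called 2 adaptors and exchange factors, 3 genes of reverse signalling, 3 cleaving proteases, 1 Notch gene, 5 semaphorin and plexin genes and 1 netrin and Slit gene. Of kinases and phosphatases it called 0, with 1 at an unadjusted p under 0.05, where limma without a fold minimum called 16 and voom 17.

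Libraries of the same number did not deviate together (correlations over genes of 0.0180, -0.157 and -0.168), so the numbers were not taken to pair the samples, and the replicate block left 5 members and 7042 genes called. The scarcest members, EPHB3 and EFNA4, had at least 312 and 339 estimated reads per library, and whether depth set their calls was not tested.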

Other observations

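Other guidance families that act at cell contacts were counted in the same way. Of 24 listed semaphorins, plexins and neuropilins, 6 were higher in VprBP knockdown cells, 15 were lower and 3 were not called, while over all listed genes 60.9% were called, 33.0% as higher and 27.8% as lower. No test set the lists against the table. Their median log2 fold change was -0.34. PLXNA4, a receptor of class 3 and class 6 semaphorins, had levels of 4.45, 4.39 and 3.91 in VprBP knockdown libraries and 19.4, 21.3 and 17.7 in control libraries, 4.57-fold lower. The groups were far apart (log2 fold change -2.07, SE 0.10, limma adjusted p = 6.19e-11). SEMA6B, a transmembrane semaphorin, was 38.9 ± 3.26 in VprBP knockdown cells and 103 ± 6.74 in control cells (SD, n = 3 each), 2.65-fold lower, and SEMA4G was 2.32-fold lower. Among increases at a mean level of at least 5, SEMA7A, a semaphorin with a lipid anchor, rose 1.30-fold, SEMA3A rose by 0.14 in log2 fold change, and SEMA4F lay at the edge of the threshold (limma adjusted p = 0.0499), which it passed only when VprBP knockdown replicate 2 was the library left out and otherwise missed, with up to 0.14 without control replicate 1. SEMA3D, with a mean level under 5 and named after its values were seen, rose more (log2 fold change 1.43). It averaged 6.22 in VprBP knockdown cells and 1.98 in control cells.

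Of 10 listed netrin, Slit and Robo genes, 3 were higher, 3 were lower and 4 were not called, with a median of 0.03, and their share of calls is close to that of all listed genes (60.9%). ROBO4, a receptor known from endothelium, rose 2.93-fold, with levels of 13.2, 13.0 and 13.0 in VprBP knockdown libraries and 4.70, 4.70 and 3.96 in control libraries. Its groups were far apart. SLIT2, a Robo ligand, rose 1.31-fold and NTNG1 rose 1.39-fold. ROBO1, the Slit receptor of many epithelia, was lower, with means of 33.4 ± 2.28 in VprBP knockdown cells and 46.6 ± 2.09 in control cells (SD, n = 3 each), as was SRGAP1 (log2 fold change -0.45).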
